A study of Mus musculus with 12 samples.

Results

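The immune cells described here are the few leukocytes that remained among joint cells sorted as negative for CD45, the surface protein that almost all leukocytes carry. They were chosen by their own RNA: a cell with more than 500 and fewer than 5000 detected genes counted as immune when at least 3 of *Ptprc*, *Tyrobp*, *Fcer1g*, *Cd52*, *Lyz2* and *Cd74* were detected, and when at most 3 of the fibroblast genes *Dcn*, *Lum*, *Gsn*, *Fbln1*, *Serpinf1*, *Pdpn* and *Pdgfra* were. A gene is detected when it has at least 1 UMI, the molecular tag by which the 10x Genomics 3′ assay counts RNA molecules. The rule found 86 cells, of 20213 cells within the limits on genes and 21042 deposited cells. No cell barcode, taken without its suffix, occurred in more than 1 library. They held 361281 UMIs together, and the UMIs of 1 cell ran from 1771 through a median of 3417.5 to 13048. Most were myeloid: 35 cells lay in 3 clusters led by neutrophil granule genes, 17 were monocyte-like and 17 macrophage-like. Another 14 lay in a cluster led by MHC class II genes. The last 3 carried genes of blood vessel endothelium beside immune genes of the rule, so the name immune is uncertain for them.

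The cells came from hind limb joints of young adult male wild-type C57BL/6 mice. Joints were digested with collagenase, live CD45-negative cells were sorted, and each library pooled cells of 3 animals. Serum transfer-induced arthritis (STIA) was started by an intravenous injection of 100 µl of serum from K/BxN mice, which carries antibodies that inflame the joints, and the libraries labelled rest came from day 0, before serum. Libraries labelled peak came from days 7 to 9 after it, those labelled resolving from day 15 and those labelled resolved from day 22, with 3 libraries for each label. Between 1231 and 2755 cells per library and 7739438 to 16750555 UMIs lay within the limits, and the median UMIs per deposited cell was 5358 in every library.

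The labels do not order the libraries the way their contents do. Each library's barcodes end in a suffix from 1 to 12, and over 7566 genes every one of the 12 libraries correlated best with a library of the same run of 3 consecutive suffixes, while 0 of 12 correlated best with a library of its own label. Suffixes 1 to 3 hold rest 1, peak 1 and resolving 1, suffixes 4 to 6 hold resolved 1, rest 2 and peak 2, suffixes 7 to 9 hold resolving 2, resolved 2 and rest 3, and suffixes 10 to 12 hold peak 3, resolving 3 and resolved 3. The comparisons of labels are therefore given with the values by run of suffixes, and the runs are not called stages.

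K/BxN serum acts through immune complexes that engage Fc receptors and complement on myeloid cells. Neutrophils, which pack antimicrobial proteins into granules in an ordered sequence while they mature in the marrow, enter the joint early and are needed for the disease. Monocytes arrive from the blood, and macrophages of the synovial lining and sublining clear debris and present antigen. A CD45-negative sort is meant to remove all of these, so the cells below are those that passed the gate.

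Immune cells were found in 9 of the 12 libraries, and peak 2 held 37.2% of them. The libraries labelled rest held 0, 6 and 6 immune cells, those labelled peak 0, 32 and 3, those labelled resolving 3, 15 and 0, and those labelled resolved 4, 12 and 5. As a share of the cells of a library these were 0%, 0.329% and 0.479% for rest, 0%, 1.96% and 0.123% for peak, 0.244%, 0.871% and 0% for resolving, and 0.307%, 0.436% and 0.327% for resolved. Peak 2 had the highest share, with an exact 95% binomial interval of 1.34% to 2.76% that overlapped only that of resolving 2 (0.488% to 1.43%). The 3 libraries without an immune cell allow shares of up to 0.172% (rest 1), 0.222% (peak 1) and 0.210% (resolving 3). These intervals and limits cover counting error only.

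The share did not differ between labels beyond the spread of the libraries. The mean share was 0.269% ± 0.245 (SD, n = 3) for rest, 0.694% ± 1.10 for peak, 0.372% ± 0.449 for resolving and 0.356% ± 0.0693 for resolved. Each later label exceeded rest, by 0.425, 0.103 and 0.0874 percentage points in that order, with p = 0.9 in each two-sided exact permutation test and an adjusted p of 0.9, where 3 libraries against 3 cannot go below 0.1. The peak difference rested on 1 library and was -0.208 percentage points without peak 2. The resolving difference turned to -0.032 without rest 1 and to -0.147 without resolving 2, and the resolved difference to -0.0472 without rest 1. Because a leukocyte had to pass a gate set against it, the number of such cells in the joints and the setting of the gate cannot be told apart.

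By run of suffixes the mean shares were 0.0812% ± 0.141 for suffixes 1 to 3, 0.865% ± 0.948 for 4 to 6, 0.595% ± 0.240 for 7 to 9 and 0.150% ± 0.165 for 10 to 12 (SD, n = 3 each). Suffixes 4 to 9 thus held 42 and 33 cells and the outer runs 3 and 8. An exact permutation test over all 15400 arrangements of the 12 libraries gave F = 1.66 and p = 0.162 for the runs, and F = 0.284 and p = 0.973 for the labels. On ranks of the shares, tried after the values were seen, the runs gave F = 6.89 and p = 0.0198 in the same exact permutation test. Libraries were also left out in turn after the values were seen. Without peak 2 the shares themselves gave F = 5.23 and p = 0.0157 by exact permutation. Without any other single library the exact permutation p lay between 0.0738 and 0.312.

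**Figure D1:**
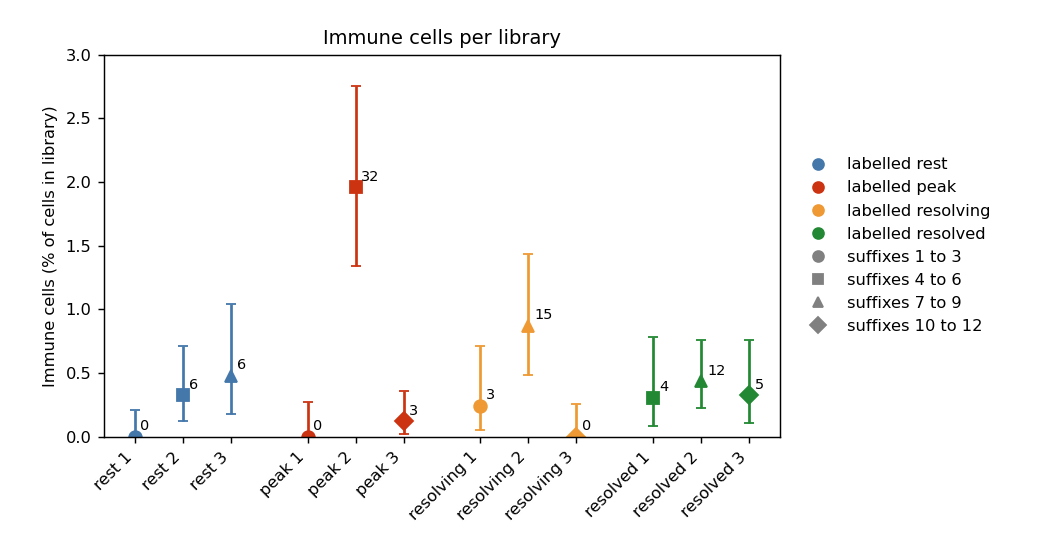
Share of cells that met the immune rule in each of the 12 libraries, in percent of cells within the limits on genes, with exact 95% binomial intervals and the number of cells, ordered by label, with marker shape for the run of suffixes. Peak 2 stands at 1.96%, resolving 2 at 0.871%, and rest 1, peak 1 and resolving 3 at 0.

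The genes of the rule define the cells, so their values are a description. *Tyrobp* and *Fcer1g*, the adaptors that carry the signals of Fc and related receptors, were detected in 84 of the 86 cells each, *Cd52* in 81, and *Lyz2*, the lysozyme of myeloid cells, in 79. *Ptprc*, which encodes CD45 itself, was detected in 44 cells and *Cd74*, the invariant chain of MHC class II, in 27. As UMIs of the gene per 1000000 UMIs summed over the cells (CPM), *Lyz2* stood at 15871 in the immune cells and 23.0 in the other cells, *Tyrobp* at 2314 and 1.86, *Fcer1g* at 2151 and 2.15, *Cd52* at 1697 and 1.39, *Cd74* at 4863 and 3.16, and *Ptprc* at 199 and 0.138. These 86 cells held between 65.7% (*Lyz2*) and 81.0% (*Cd74*) of all the UMIs of each of these genes, and 80.0% of those of *Ptprc*. No *Ptprc* UMI was found in the other 42 cells at this depth.

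Fibroblast RNA was present at a low level. *Gsn* was detected in 63 of the cells, *Dcn* in 45, *Serpinf1* in 17, *Lum* in 13, *Pdpn* in 6, *Pdgfra* in 2 and *Fbln1* in none, and *Dcn*, the decorin gene, stood at 191 CPM against 13675 in the other cells. *Col1a1* and *Hbb-bs*, a collagen and a haemoglobin gene outside the rule, were detected in 51 and 53 cells. *Hbb-bs* was also detected in 50.2% to 89.0% of the other cells of a library, so red-cell RNA was not particular to the immune cells.

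Few cells lay near the limit on immune genes, and many near that on fibroblast genes. Among cells with at most 3 fibroblast genes, 3545 had none of the 6 immune genes, 141 had 1 and 11 had 2, and 7, 28, 40 and 11 cells had 3, 4, 5 and 6. Summed over the 7 cells with 3 immune genes, *Lyz2* stood at 7798 CPM and *Tyrobp* at 1097, against 119 and 409 in the 11 cells with 2. Of those 11 cells outside the limit, 5 carried at least 3 of 6 endothelial markers. Of the members, 12 had no fibroblast gene, 22 had 1, 32 had 2 and 20 had 3, and 9 cells that were left out had 4, with *Dcn* at 264 CPM in the cells with 3 and 1864 in those with 4. As genes of the rule, *Lyz2*, *Tyrobp* and *Dcn* describe these cells and give no support for where the limits lie. With at most 1 fibroblast gene allowed, 34 cells were left. None of the 801 cells with 500 or fewer genes met the gene rule, nor did any of the 28 cells with 5000 or more.

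Outside the genes of the rule, the 15 genes with the highest ratio of CPM in the immune cells to CPM in all other cells were mostly genes of neutrophils. *Ltf*, which encodes the iron-binding granule protein lactoferrin, stood at 4423 CPM against 0.991. *Ly6g*, the surface protein used to recognise mouse neutrophils, stood at 354 against 0.108, and *Camp*, the precursor of the antimicrobial peptide CRAMP, at 22417 against 11.2. *Cd177* and *Itgb2l*, which encode a neutrophil surface protein and an integrin chain, *Mmp8*, a collagenase stored in granules, *Chil3*, a chitinase-like protein, *Mcemp1* and *Ifitm6* also belonged to the 15.

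The other 6 of the 15 marked macrophages and monocytes or several myeloid classes. *C1qb* and *C1qa*, chains of complement C1q, stood at 764 and 695 CPM against 0.276 and 0.300. *H2-Aa*, a chain of MHC class II, stood at 2001 against 0.876, and *Ccr2*, the receptor by which monocytes leave the marrow, at 177 against 0.0922. *AF251705* and *Tnfaip8l2* completed them at 122 against 0.0538 and 74.7 against 0.0384. Over the 15 genes the ratio lay between 1810 and 4464, and between 1948 and 8680 without peak 2. Over the 8672 genes at 10 CPM or more in either set, 38.36% were higher in the immune cells and the median log2 ratio was -0.34. Since the cells were chosen by genes of the same cells, no test was made against the rest.

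The 86 cells fell into 7 clusters when grouped by their variable genes with the 13 genes of the rule left out. The settings were chosen after clusters at other settings had been seen, and the genes that lead a cluster are given as a description. The Fcnb granule cluster (11 cells from 3 libraries) was led by *Fcnb*, *Elane* and *Cebpe* together with genes of dividing cells such as *Rrm2* and *Ube2c*. It is given no cell type name, since it held markers of neutrophils and of myeloid progenitors. The neutrophil markers *S100a8*, *S100a9*, *Ngp* and *Camp* were detected in 11 of its 11 cells, *Elane* in 4 and *Ms4a3* in 7. Its 10 leading genes held 2 markers of myeloid progenitors, *Elane* and *Ms4a3*, and no neutrophil marker. The Ltf neutrophil-like cluster (10 cells from 5 libraries) was led by *Ifitm6*, *Wfdc21*, *Ltf*, *Lcn2* and *Ngp*, and the Retnlg neutrophil-like cluster (14 cells from 4 libraries) by *Retnlg*, *Mmp8*, *G0s2* and *Slpi*.

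The remaining clusters were led by other genes. The monocyte-like cluster (17 cells from 8 libraries) was led by *Tmsb10*, *Ccl9*, *Fn1* and *Plac8*. Beside monocyte markers it held the osteoclast markers *Acp5* and *Ctsk* and the progenitor markers *Prtn3* and *Ctsg*. Its name therefore does not cover all of its cells. The macrophage-like cluster (17 cells from 4 libraries) was led by *Pf4*, the 3 C1q genes, *Apoe*, *Ms4a7* and *Trem2*. The MHC class II cluster (14 cells from 6 libraries) was led by *H2-Ab1*, *H2-Aa* and *H2-Eb1* and stays without a cell type name, because it held markers of monocytes, dendritic cells and innate lymphoid cells side by side. The 3 endothelial-like cells, from 3 libraries, were led by *Fabp4*, *Gpihbp1* and *Cav1*. They held *Pecam1* and *Cdh5* in 3 of 3 cells, *Kdr*, *Emcn* and *Egfl7* in 2 and *Cldn5* in 1, beside *Tyrobp*, *Fcer1g*, *Cd52* and *Lyz2* in 3 of 3. The neutrophil markers *S100a8* (35398 CPM) and *S100a9* (30848 CPM) were detected in 2 of the 3. The source of this mix of RNA was not tested. Markers were also counted cell by cell: 41 cells had at least 3 of 9 neutrophil markers, 31 had at least 3 of 10 macrophage markers, 4 had both and 18 neither. At least 3 of 6 monocyte markers were detected in 49 cells, 33 of which also had at least 3 neutrophil markers.

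Lymphoid and other rare cells were nearly absent. No cell carried *Cd3e*, *Cd3d* or *Cd3g*, the chains of the T cell receptor complex, and 0 of 86 cells allows a share of up to 3.49% of cells with such a UMI. A single cell of resolved 3 carried 3 of 7 B cell markers in 22 of its 1771 UMIs. A single cell of peak 2 carried 4 of 4 basophil markers, which took 321 of its 2552 UMIs. The 2 cells with 5 of 9 osteoclast markers came from rest 2 and peak 2. All 4 of these cells were placed in the monocyte-like cluster, whose values include them.

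**Figure D2:**
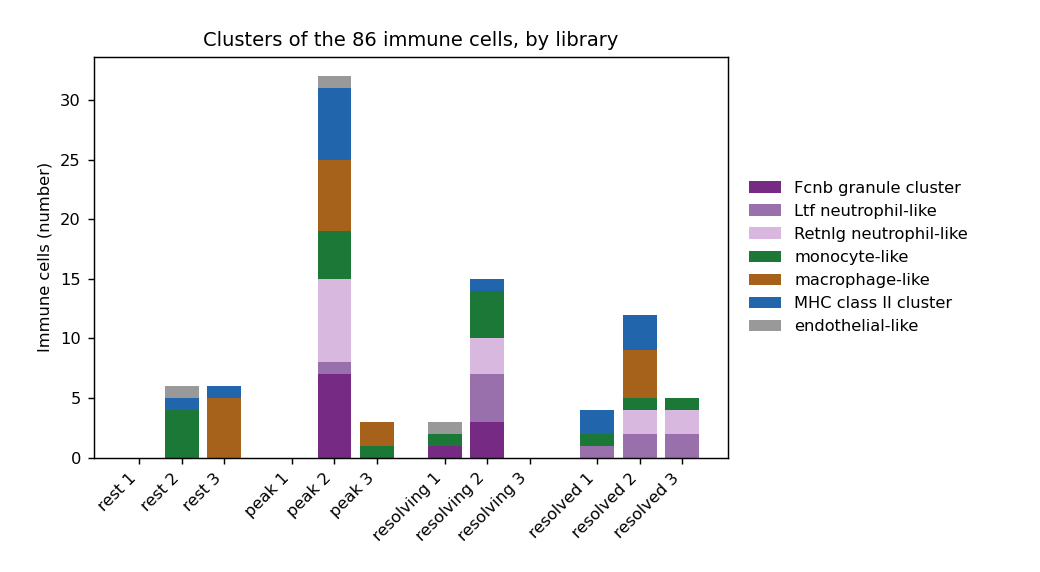
Number of immune cells of each cluster in each of the 12 libraries, as stacked bars ordered by label. Peak 2 holds cells of all 7 clusters, rest 1, peak 1 and resolving 3 hold none, and the libraries labelled rest hold no cell of the 3 granule clusters.

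The 7 clusters were spread unevenly over the libraries. The Fcnb granule cluster came from peak 2 (7 cells), resolving 2 (3) and resolving 1 (1). The Ltf neutrophil-like cells came from resolving 2 (4), resolved 2 (2), resolved 3 (2), peak 2 (1) and resolved 1 (1), and the Retnlg neutrophil-like cells from peak 2 (7), resolving 2 (3), resolved 2 (2) and resolved 3 (2). Macrophage-like cells came from peak 2 (6), rest 3 (5), resolved 2 (4) and peak 3 (2), whereas monocyte-like cells were found in 8 of the 9 libraries, with at most 4 in each.

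**Figure D3:**
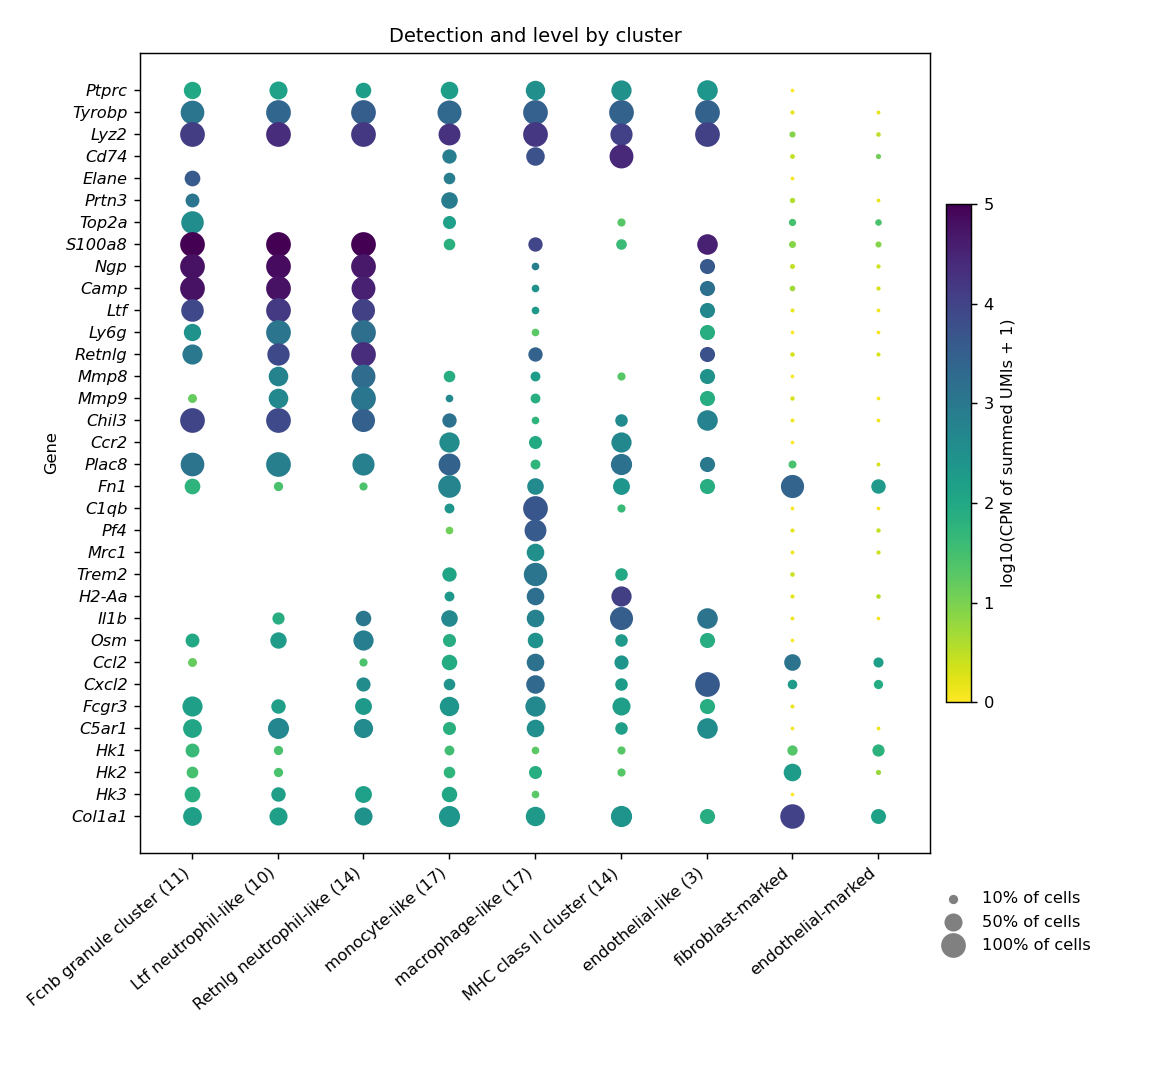
Detection (dot size, percent of cells) and level (colour, log10 of CPM of summed UMIs plus 1) of named genes in the 7 clusters, with cell numbers in parentheses, and in fibroblast-marked and endothelial-marked cells. *S100a8*, *Ngp*, *Camp* and *Ltf* are high in the 3 granule clusters, *C1qb* and *Pf4* in the macrophage-like cells and *Cd74* and *H2-Aa* in the MHC class II cluster, while *Col1a1* is detected in every column.

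Together the 3 granule clusters held 35 of the 86 cells, or 40.7% (exact 95% interval 30.2% to 51.8%, 37.0% without peak 2). Their cells made up 0 of 12 immune cells of the libraries labelled rest (exact interval 0% to 26.5%). They made up 15 of 35 at peak (42.9%), 11 of 18 at resolving (61.1%) and 9 of 21 at resolved (42.9%). All 15 at peak came from peak 2, and 10 of the 11 at resolving came from resolving 2. By run of suffixes they made up 1 of 3 immune cells in suffixes 1 to 3 and 16 of 42 in 4 to 6. The counts were 14 of 33 in suffixes 7 to 9 and 4 of 8 in 10 to 12. Cells of 1 library are not independent, and these intervals cover counting error only.

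Granule proteins are made in sequence as a neutrophil matures: myeloperoxidase and the serine proteases of primary granules first, lactoferrin and the other proteins of secondary granules next, and gelatinase and late genes last. The genes of each step were grouped in 3 lists of 5 genes, drawn up after the data had been seen. The summed CPM of *Mpo*, *Elane*, *Prtn3*, *Ctsg* and *Ms4a3* ran from 0 to 37376 over the cells of the Fcnb granule cluster with a median of 441, and the median was 0 in each other cluster. The sum of *Ltf*, *Camp*, *Ngp*, *Lcn2* and *Cd177* had medians of 164838 in the Fcnb granule cluster, 167503 in the Ltf and 111846 in the Retnlg neutrophil-like cells. The sum of *Mmp8*, *Mmp9*, *Retnlg*, *Cxcr2* and *Slpi* had medians of 962, 6552 and 36052 in the same order. The median of the late genes thus rose from the Fcnb to the Retnlg cluster, and all 3 clusters held the genes of secondary granules. The high values of the first list came from a cell of peak 2 at 37376 CPM and another of peak 2 at 28220 CPM. The next highest in the Fcnb granule cluster, also of peak 2, stood at 2853 CPM.

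Single genes followed their lists. *Elane*, the neutrophil elastase, stood at 3805 CPM in the Fcnb granule cluster, where 4 of 11 cells held it, and at 0 in both neutrophil-like clusters. *Fcnb*, a ficolin of granules, fell in level from 1797 CPM through 103 to 0 across the Fcnb, Ltf and Retnlg clusters. *Cebpe*, the transcription factor of secondary granule genes, stood at 523, 206 and 24.6 CPM, and *Retnlg*, a resistin-like protein, at 976, 7791 and 23399. *Mmp8* stood at 0, 568 and 1747 CPM, and *Mmp9*, the gelatinase, at 14.1, 464 and 1107.

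Other genes separated the clusters in the same order. *Il1b*, the inflammatory cytokine, was not detected in the 11 Fcnb granule cells, was detected in 2 of 10 Ltf neutrophil-like cells (77.4 CPM) and in 5 of 14 Retnlg neutrophil-like cells (1033 CPM). At least 3 of the 5 cycling genes *Mki67*, *Top2a*, *Ccnb1*, *Cdk1* and *Birc5* were detected in 6 of 11 Fcnb granule cells and in none of the other 24 granule cells. The median UMIs per cell were 6401, 3311.5 and 2601 in the same order, so detection of genes at low levels is not on 1 footing. No cell of the 3 clusters carried *Cd74* or a C1q gene.

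**Figure D4:**
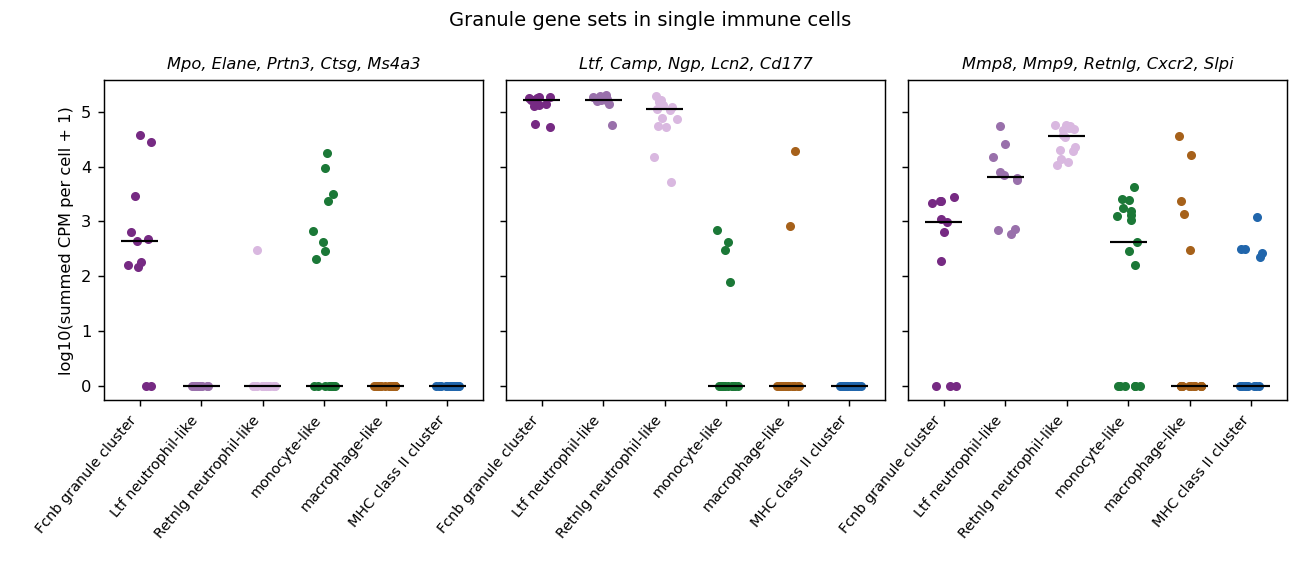
Summed CPM of the first (primary granules), second (secondary granules) and the third (late genes) granule list in each cell of 6 clusters, on a log10 axis with 1 added, with black bars at the medians and without the 3 endothelial-like cells. The second list lies at 5141 CPM or more in all cells of the 3 granule clusters, the first reaches 37376 CPM in the Fcnb granule cluster, and the third has a median of 36052 CPM in the Retnlg neutrophil-like cells.

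The promoters of 5 granule genes are shown because they stand for the first list (*Elane*, *Prtn3*) and the second (*Camp*, *Ngp*, *Ltf*). *Prtn3* and *Elane* are 3.1 kb apart on chromosome 10, and *Camp*, *Ngp* and *Ltf* lie on chromosome 9, with gaps of 570.1 and 596.3 kb. Each window runs from 250 bases before to 50 bases after the transcription start in RefSeq (GRCm38.p6), 5′ to 3′ on the strand of the gene. Capitals mark matches, on either strand, to TTNNGNAA, a form of the site of C/EBP factors such as the product of *Cebpe*, and to GAGGAA, a form of the site of the myeloid factor PU.1.

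*Elane*, chr10:79886062-79886361, plus strand: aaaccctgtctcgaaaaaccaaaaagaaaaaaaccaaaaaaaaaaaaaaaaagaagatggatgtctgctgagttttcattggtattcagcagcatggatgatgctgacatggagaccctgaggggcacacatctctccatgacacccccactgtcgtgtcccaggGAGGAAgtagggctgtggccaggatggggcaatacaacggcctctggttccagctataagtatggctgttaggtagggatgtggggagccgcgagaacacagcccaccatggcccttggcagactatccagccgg

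*Prtn3*, chr10:79879417-79879716, plus strand: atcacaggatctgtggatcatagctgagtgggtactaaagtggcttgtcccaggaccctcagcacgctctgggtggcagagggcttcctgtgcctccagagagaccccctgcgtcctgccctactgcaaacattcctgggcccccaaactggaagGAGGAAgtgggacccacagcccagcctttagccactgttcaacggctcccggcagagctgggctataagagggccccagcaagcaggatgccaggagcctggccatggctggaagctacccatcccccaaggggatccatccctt

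*Camp*, chr9:109849407-109849706, minus strand: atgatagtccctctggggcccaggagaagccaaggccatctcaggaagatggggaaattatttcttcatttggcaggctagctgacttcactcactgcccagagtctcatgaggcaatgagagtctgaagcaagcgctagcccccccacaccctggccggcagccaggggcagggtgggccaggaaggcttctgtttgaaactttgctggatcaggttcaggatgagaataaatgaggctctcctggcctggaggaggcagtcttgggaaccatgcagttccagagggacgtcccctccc

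*Ngp*, chr9:110419558-110419857, plus strand: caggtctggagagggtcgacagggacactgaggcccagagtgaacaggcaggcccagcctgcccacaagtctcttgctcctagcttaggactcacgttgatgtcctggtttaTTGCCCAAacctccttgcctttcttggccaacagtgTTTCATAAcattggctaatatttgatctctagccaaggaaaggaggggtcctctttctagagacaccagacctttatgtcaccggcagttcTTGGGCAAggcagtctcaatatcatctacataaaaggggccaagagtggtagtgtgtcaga

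*Ltf*, chr9:111019042-111019341, plus strand: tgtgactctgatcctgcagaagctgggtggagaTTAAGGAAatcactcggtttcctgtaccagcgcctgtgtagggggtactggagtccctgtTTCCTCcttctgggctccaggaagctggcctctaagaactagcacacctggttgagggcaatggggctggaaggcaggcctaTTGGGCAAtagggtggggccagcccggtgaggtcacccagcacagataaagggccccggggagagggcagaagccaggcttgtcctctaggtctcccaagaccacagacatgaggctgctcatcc

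The *Elane* and *Prtn3* windows each hold 1 match to GAGGAA, 85 and 95 bases before the start, and none to TTNNGNAA. The *Ngp* window holds 3 matches to TTNNGNAA, at 138, 102 and 11 bases before the start, and none to GAGGAA. The *Ltf* window holds 2 matches to TTNNGNAA, at 217 and 75 bases, and 1 to GAGGAA at 157, and the *Camp* window holds neither. No match overlapped another. GAGGAA was found in 5 of 5 promoters of the first list, 3 of 5 of the second and 2 of 4 of the third with a promoter in the table, against 28.3% of all 32851 promoters. TTNNGNAA was found in 1 of 5, 4 of 5 and 3 of 4, against 40.7% of all promoters. A match describes the letters of the window and is not evidence of binding.

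Granule RNAs were then compared between libraries. In the 4 libraries with at least 4 granule cells, *S100a8*, a subunit of the calcium-binding protein calprotectin, stood at 169300 CPM in peak 2 (15 cells), 186522 in resolving 2 (10 cells), 177607 in resolved 2 (4 cells) and 215961 in resolved 3 (4 cells). *Camp* stood at 55465, 50710, 58796 and 52879 CPM in the same libraries, and *Ltf* at 7784, 13584, 16785 and 9432. *Camp* and *Ltf* were both highest in resolved 2 and *S100a8* in resolved 3. *Elane* stood at 4114 CPM in peak 2 and was not detected in the granule cells of the other 3.

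RNA of granule genes was also detected outside the immune cells. *S100a8* was detected in 17.6% of the other cells of peak 2, 8.67% of resolving 2, 6.76% of resolved 1 and 0.281% to 4.08% in the other 9 libraries. It was detected in 4.57% of fibroblast-marked cells (median 6206 UMIs) and 2.85% of endothelial-marked cells (median 3086 UMIs), against 54.7% of immune cells. The part of such RNA in low values was not tested. In the macrophage-like cells, *S100a8* stood at 8842 CPM, from 491 UMIs in 5 of 17 cells, against 44.6 CPM outside the immune cells. A macrophage-like cell of peak 2 held the listed genes of secondary granules at 19137 CPM in sum and the late genes at 35580. Another, of rest 3, held the late genes at 16334 CPM, while 15 and 12 of the 17 cells held none of these lists in that order. The source of this RNA was not tested.

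Of the 17 monocyte-like cells, 11 held *Ccr2* (382 CPM) and 13 held *Plac8* (2772 CPM). *Fn1*, which encodes fibronectin (546 CPM), and the chemokine gene *Ccl9* (1364 CPM) were detected in 14 cells each. These sums include the cells with osteoclast, basophil, B cell or myeloid progenitor markers. *Ly6c2*, which marks inflammatory monocytes and whose reads may be shared with its near-identical neighbour *Ly6c1*, was detected in 10 of them at 1080 CPM and in all 35 granule cells. Genes of the primary granule, which marrow precursors of monocytes also make, were present too: 8 of the 17 cells held UMIs of the first granule list, up to 17514 CPM in a cell, with *Prtn3* in 7 cells and *Ctsg* in 5. At least 3 of the 5 cycling genes were detected in 5 of the 17.

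Monocyte-like cells were also summed by library. Of the 3 libraries with 4 such cells each, *Lyz2* stood at 6251 CPM in rest 2, 6446 in peak 2 and 39622 in resolving 2, and it stood at 40320 in the sum of the 5 cells of the other 5 libraries. *Fn1* stood at 136, 179, 1415 and 1055 CPM in that order, and *Prtn3* at 1461, 1110, 149 and 240. *Ctsk*, the cathepsin of osteoclasts, stood at 883 CPM in rest 2 and 5622 in peak 2 and came from 1 cell each in rest 2 and peak 2, the cells with 5 of 9 osteoclast markers in those libraries. In rest 2 that cell held 13048 of the 29436 UMIs summed, and a cell with all 5 genes of the first granule list held 9588. In peak 2 the corresponding cells held 9693 and 12333 of 27926 UMIs, and the cell with basophil markers held 2552. The sums of rest 2 and peak 2 were low in *Lyz2* and *Fn1* beside the other monocyte-like cells. A difference between libraries and the kinds of cell summed cannot be told apart here, and no test was made on them.

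All macrophage-like cells held complement RNA, and fewer held the genes of tissue states. *C1qa*, *C1qb* and *C1qc* were all detected in 17 of 17 cells, their sum ran from 2810 through a median of 8338 to 25267 CPM per cell, with *C1qb* at 4520 CPM against 0 in the granule clusters. *Apoe*, the lipid carrier, stood at 25969 CPM, *Pf4*, a CXC chemokine also made by platelets, at 3800, and *Trem2*, a receptor for lipids and debris, at 1117 with 15 cells positive. *Mrc1*, the mannose receptor, and *Folr2*, a folate receptor of resident macrophages, were each detected in 8 cells, *Lyve1* in 4, *Vsig4* in 3 and *Timd4* in 1. *H2-Aa* was detected in 8 of the 17, 3 of which also held *Folr2*, and 4 cells held neither.

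Chemokine genes of the macrophage-like cells were summed by library, with no test. *Ccl2*, the main attractant of monocytes, stood at 5022 CPM in rest 3 (3 of 5 cells), 217 in peak 2 (2 of 6 cells) and 342 in resolved 2 (3 of 4 cells). *Cxcl2*, an attractant of neutrophils, stood at 5968, 1083 and 85.6 CPM, and *Il1b* at 1747, 433 and 171. In contrast, *C1qb* stood at 5313, 4224 and 4193 CPM. *Ccl3* stood at 1019, 271 and 2652 CPM, *Ccl4* at 1383, 0 and 5220 and *Trem2* at 1092, 487 and 2396, all highest in resolved 2, while *H2-Aa* was highest in peak 2 at 3411 CPM against 1310 and 770. *Fos* and *Hspa1a*, which respond to tissue dissociation and the second of which may share reads with its near copy *Hspa1b*, stood at 2329 and 1965 CPM in the rest 3 cells, 1083 and 596 in peak 2 and 2139 and 1027 in resolved 2, and their part in the values of *Ccl2* and *Cxcl2* was not tested. The 2 macrophage-like cells of peak 3 held 24 UMIs of *Lyve1*, 14 of *Folr2* and 1 of *Apoe*.

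The C1q genes lie side by side on chromosome 4, with 3.6 kb between *C1qb* and *C1qc* and 2.9 kb between *C1qc* and *C1qa*. The *C1qb* window is shown with the match to GAGGAA, 30 bases before the start, in capitals, and the *C1qc* window holds that motif as well.

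*C1qb*, chr4:136886151-136886450, minus strand: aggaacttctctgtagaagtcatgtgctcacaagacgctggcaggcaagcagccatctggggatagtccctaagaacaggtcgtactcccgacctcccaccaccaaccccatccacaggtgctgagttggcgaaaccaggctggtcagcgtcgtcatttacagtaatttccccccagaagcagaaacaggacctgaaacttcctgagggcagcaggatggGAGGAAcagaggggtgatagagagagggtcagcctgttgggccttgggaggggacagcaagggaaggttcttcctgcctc

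The MHC class II cluster was made of cells that differ from each other. *H2-Aa* stood at 12009 CPM in it and was detected in 9 of 14 cells, and *Cd74* in 13. *Il1b* was detected in 12 of the 14 at 3311 CPM, the highest level of any cluster, against 1033 in the Retnlg neutrophil-like and 612 in the macrophage-like cells. *Ccr2* was detected in 9 cells, *Ccr7*, the receptor of migrating dendritic cells, in 3, *Itgax* in 3 and *Klrd1*, a gene of natural killer cells, in 3. At least 3 dendritic cell markers were detected in 4 cells, from rest 2, peak 2 and resolved 2 (2 cells). In peak 2 the 6 cells held *H2-Aa* at 8267 CPM, from 3 cells, and in resolved 2 the 3 cells held it at 24798, from 2 cells.

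The promoter of *H2-Eb1*, the beta chain of I-E, is shown with its 2 matches to CCAAT in capitals on either strand, 59 and 35 bases before the start. This box is part of the promoter module of MHC class II genes, it was found in 2 of the 3 promoters of this group in the table, *H2-Aa* and *H2-Eb1*, and 37.4% of all promoters hold it. *H2-Ab1* and *H2-Aa* are 13.3 kb apart, and *H2-Eb1* lies 18.0 kb from *H2-Aa* on chromosome 17.

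*H2-Eb1*, chr17:34305617-34305916, plus strand: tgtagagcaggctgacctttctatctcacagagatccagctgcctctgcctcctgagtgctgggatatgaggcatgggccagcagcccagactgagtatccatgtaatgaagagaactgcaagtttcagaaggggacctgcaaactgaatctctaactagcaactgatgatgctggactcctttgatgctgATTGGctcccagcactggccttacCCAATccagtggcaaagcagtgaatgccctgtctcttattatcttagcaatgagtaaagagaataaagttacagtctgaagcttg

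RNA of receptors for immune complexes and complement fragments, the path by which K/BxN serum acts, was detected in many of the cells. All 7 of the measured Fc and complement receptor genes were higher in CPM than in other cells, 1027 against 3.69 in sum. At least 1 of the 7, which include the integrin chain *Itgb2*, was detected in 82 of 86 cells, and at least 3 in 37. *Fcgr3*, an activating Fc receptor, was detected in 45 cells, at 450 CPM in macrophage-like cells and 155 to 197 in the granule clusters. *Fcgr2b*, the inhibitory receptor, was detected in 36 cells, with 549 CPM in the MHC class II cluster and 0 in the Ltf neutrophil-like cells. *Fcgr4* had 8 UMIs in 8 cells. *C5ar1*, the receptor of the complement fragment C5a, was detected in 38 cells, at 516 and 418 CPM in the Ltf and Retnlg neutrophil-like cells and 113 in the Fcnb granule cluster, and *C3ar1* in 13 cells, 9 of them macrophage-like. Of the adaptor list, *Tyrobp* and *Fcer1g* belong to the rule and had to be high, and the other 3 measured genes, *Trem2* (23 cells), *Syk* (12 cells) and *Btk* (9 cells), were higher too.

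The cytokine list was higher in 6 of 10 genes. *Il1b* stood at 844 CPM in the immune cells, which held 71.4% of its UMIs in the series, against 0.937 in all others. *Osm*, oncostatin M, was detected in 30 cells, at 763 CPM in the Retnlg neutrophil-like cells and 76.4 to 288 in the other clusters. *Il1rn*, the antagonist of the interleukin-1 receptor, was detected in 28 cells, 12 of them macrophage-like. *Tnf* was detected in 4 cells and *Il10* and *Csf2* in none. *Il6* had 3 UMIs, or 8.30 CPM, against 176 in fibroblast-marked and 266 in endothelial-marked cells, and *Csf1*, the growth factor of macrophages, 5.54 against 103 in fibroblast-marked cells. Fibroblast-marked cells are the 13517 cells with at least 5 of the 7 fibroblast genes and at most 2 immune genes.

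Chemokine genes divided in the same manner, with 8 of 11 higher in the immune cells. *Ccl3*, *Ccl4*, *Ccl6* and *Ccl9* stood at 335, 595, 327 and 551 CPM against 0.780, 0.760, 0.339 and 16.7 in fibroblast-marked cells. *Ccl2*, *Ccl7* and *Cxcl1* were the 3 that were lower, at 277, 152 and 113 CPM against 1242, 1575 and 2032 in fibroblast-marked cells. *Cxcl2* stood at 609 against 177, most of it in macrophage-like (2125 CPM) and endothelial-like cells (4010 CPM, 3 of 3 cells). Among chemokine receptor genes, *Ccr1* was detected in 34 cells, *Ccr2* in 24, *Cxcr4* in 12, *Cx3cr1* in 7 and *Cxcr2* in 6, each at a higher CPM than in other cells.

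Clearance and lysosome genes were higher in 7 of 11. *Ctss*, the cathepsin of antigen-presenting cells, stood at 1331 CPM against 0.937, with 4142 in macrophage-like cells, 2860 in the MHC class II cluster and 1047 in monocyte-like cells. *Ctsb* was about level with the other cells over all 86 (1074 against 1092 CPM) while it stood at 4520 in the macrophage-like and 73.8 in the Retnlg neutrophil-like cells. *Mertk* and *Axl*, receptors for dying cells, had 1 and 6 UMIs, and *Marco* had none. Of the immediate early and heat shock genes, 0 of 9 were higher in the immune cells, with 5461 CPM in sum against 15802.

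Hexokinases catalyse the first step of glycolysis and were the enzymes the study was about. *Hk2* had 13 UMIs in 11 immune cells, or 36.0 CPM, against 180 CPM in fibroblast-marked cells, of which 47.3% held it. *Hk3*, a hexokinase of myeloid cells, had 28 UMIs in 20 immune cells, or 77.5 CPM, against 12 UMIs in all other cells, so that the 86 cells held 70.0% of its UMIs. It was detected in 13 of 35 granule cells, 6 of 17 monocyte-like and 1 of 17 macrophage-like cells, and in 10 of the 86 after each cell was thinned to 1500 UMIs. *Hk1* was detected in 8 cells at 24.9 CPM against 60.2 in endothelial-marked cells. The glycolysis list was higher in 8 of 11 genes at a median log2 ratio of 0.21, against -0.34 over all genes, with *Gapdh* at 1605 against 1091 and *Pkm* at 991 against 735 CPM.

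The makeup of the immune cells was compared between labels over the 6 libraries with at least 5 of them. Monocyte-like and macrophage-like cells made up 66.7% of the immune cells in rest 2, 83.3% in rest 3, 31.2% in peak 2, 26.7% in resolving 2, 41.7% in resolved 2 and 20.0% in resolved 3. Both rest libraries lay above all 4 others, and the means of the later labels minus that of rest were -43.8 percentage points for peak, -48.3 for resolving and -44.2 for resolved. The exact permutation p was 0.333 for each, the smallest that 2 libraries against 1 or 2 can give. The rest libraries held 6 immune cells each, and the cells counted were 4 monocyte-like ones in rest 2 and 5 macrophage-like ones in rest 3. Those of rest 2 included the cell with osteoclast markers and the cell with all 5 genes of the first granule list. With clusters at Leiden resolution 0.5 the differences were -36.5, -50 and -50, with an exact permutation p of 0.667 for each. With cells counted by at least 3 macrophage markers in place of clusters, the differences were -12.5, -23.3 and -33.3, with exact permutation p of 1, 1 and 0.667.

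Gene by gene, UMIs were summed over the immune cells of each of these 6 libraries, and resolved against rest was the comparison with 2 libraries on both sides. In edgeR's quasi-likelihood test 0 of 840 genes (0%) passed an adjusted p under 0.05 with a log2 fold change over 0.5. At an unadjusted p under 0.05 there were 62, and DESeq2 called 13 with 293 adjusted p-values not given. The fit with total counts alone called 10. The count also changed with single libraries, to 65 without resolved 2, 11 without resolved 3, 6 without resolving 2 and 1 without rest 2.

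The genes with the lowest adjusted p were neutrophil granule genes and their companions. *Ltf* stood at 160 and 0 CPM in rest 2 and rest 3, 3800 in peak 2, 9509 in resolving 2 and 5188 and 8681 in resolved 2 and resolved 3, with a log2 fold change of 6.96 ± 1.35 (SE) and an adjusted p of 0.0695 in edgeR. *Chil3* stood at 53.4 and 0 CPM at rest and 2232 and 3958 at resolved, with 7.20 ± 1.27 and an adjusted p of 0.0695. *Camp* stood at 507 and 0 CPM at rest, 26618 in peak 2, 35499 in resolving 2 and 18172 and 48666 at resolved, with 7.77 ± 1.98 and an adjusted p of 0.157 in edgeR. The 2 groups did not overlap for these genes, which were shown for their low p in this comparison, so this adds no support. How many of all tested genes did not overlap was not counted. None of the 3 passed the threshold in edgeR as fitted, while DESeq2 and the fit with total counts alone called all 3, and the fit with the replicate number as a block called *Chil3* and *Ltf*. *Gadd45a* and *Pglyrp1*, which the rule for named genes did not choose, shared the lowest adjusted p of 0.0695 with *Ly6g*. Of the 9 neutrophil markers 7 were tested, all with a positive fold change, 6 of them at an unadjusted p under 0.05, and their median log2 fold change was 5.86, against -0.15 over the 840 genes, of which 380 were higher. The rest libraries held no granule cell, so such RNA per granule cell could not be compared between rest and resolved. The *Camp* of rest 2 was 19 UMIs of 1 endothelial-like cell.

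Genes of the other clusters did not pass the threshold between resolved and rest in edgeR as fitted, while the fit with total counts alone called *Ccl2*, *Prtn3* and *Mpo*, and the fit without resolved 2 called *C1qb*, *H2-Aa* and *Ccl2*. *C1qb* stood at 0 and 3795 CPM at rest and 1420 and 0 at resolved, *H2-Aa* at 668 and 7434 and at 7304 and 0, and *Lyz2* at 5261 and 12528 and at 20520 and 15607, with adjusted p-values of 0.961, 0.983 and 0.933 in edgeR. *Ccl2* stood at 0 and 3587 CPM at rest and 145 and 0 at resolved, with a log2 fold change of -4.00 ± 1.78 and an adjusted p of 0.633. *Prtn3* and *Mpo* stood at 1148 and 774 CPM in rest 2, and at 0 in rest 3 and both resolved libraries. The complement list was lower for 3 of 3 genes at a median of -0.37, and antigen presentation higher for 5 of 5 tested genes at 0.28, with none of either at an unadjusted p under 0.05.

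By run of suffixes, with rest 2 and peak 2 in suffixes 4 to 6, rest 3, resolving 2 and resolved 2 in 7 to 9 and resolved 3 in 10 to 12, edgeR's F test called 0 of 840 genes (0%), 86 had an unadjusted p under 0.05, and DESeq2 called 2, *Mpo* and *Prtn3*. The count was 8 without resolving 2 and 2 without rest 2 or rest 3. These also had the lowest adjusted p in edgeR, 0.151. *Prtn3* stood at 1148 CPM in rest 2 and 826 in peak 2, at 33.6 in resolving 2, and at 0 in the other 3 libraries. *Mpo* stood at 774 and 1045 CPM in rest 2 and peak 2 and at 0 in the other 4. It was detected in 4 of the 86 cells, and in rest 2 it came from a single cell, which held all 5 genes of the first granule list. Both genes are shown for their low p in this comparison. No library of suffixes 1 to 3 had 5 immune cells, and the contrasts against that run could not be made.

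**Figure D5:**
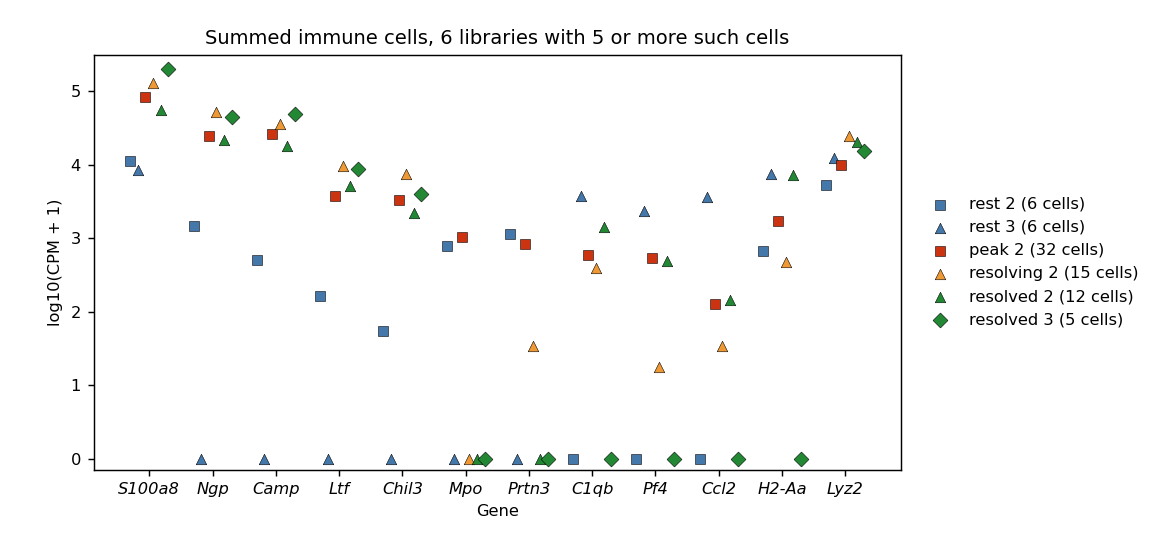
Level of 12 genes in the summed immune cells of the 6 libraries with at least 5 such cells, as log10 of CPM plus 1, with colour for the label and marker shape for the run of suffixes. The granule genes *Ngp*, *Camp*, *Ltf* and *Chil3* are lowest in both libraries labelled rest, and *Mpo* and *Prtn3* are highest in rest 2 and peak 2.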

How the data were processed

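The authors sorted and sequenced the cells and aligned the reads to mm10 with Cell Ranger, and the deposited values are whole UMI counts for 27998 gene identifiers in each called cell, before any limit on genes per cell. The median of UMIs per cell was equal in all libraries, and whether reads were subsampled to reach it is not given in the sources used here. The labels gave each library's stage and replicate number.

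The immune rule, the markers and the gene lists were chosen with earlier results of these data known. Named genes are those of the rule, the 15 with the highest CPM ratio among genes detected in at least 20% of immune cells, the genes of the listed groups, and genes past the threshold of a comparison. The 3 granule lists and the promoters were chosen after the data had been seen. *Itgam*, *Clec7a*, *Trac*, *Trbc1*, *Trbc2* and *Ccl21a* were not used here. Of the marker lists not described in the report, at least 3 genes were detected in 1 cell each for mast cells and innate lymphoid cells, 12 cells for erythroid cells, 51 for a list of other fibroblast genes, and 0 cells for T cells, B-cell precursors, megakaryocytes, perivascular cells, lymphatic endothelium, osteoblasts, chondrocytes, tenocytes, muscle and Schwann cells.

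Immune cells were scaled to 10000 UMIs, and 1000 variable genes, 10 principal components, 8 neighbours and Leiden resolution 1 (scanpy 1.11.5, leidenalg 0.10.2, Python 3.11.15) gave the clusters. Scrublet's own threshold marked 56 cells (0.277%), too few to use, and 4 of the immune cells were among the 6% with the highest scores in each library, which an alternative left out. Shares were compared by two-sided exact permutation tests over libraries (scipy 1.17.1). UMIs summed per library over at least 5 immune cells were tested with edgeR 4.0.16 (R 4.3.3; TMM, its filter on low counts, two-sided quasi-likelihood test, Benjamini-Hochberg adjustment over all genes tested, standard error as the fold change over the root of F), with DESeq2 1.42.0 as an alternative. The tests were checked on simulated data. Libraries are separate pools of animals. Promoters came from RefSeq and gene positions from GENCODE on GRCm38.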

Additional observations from a re-analysis of the deposited data

How the results depend on the processing

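The number of immune cells was 34 when at most 1 of the 7 fibroblast genes was allowed, and 79 to 86 under the other 8 alternatives for it. Under that stricter rule the difference in share from rest was 0.0164 percentage points for peak, -0.0716 for resolving and -0.0204 for resolved, and the runs of suffixes gave F = 4.21 (p = 0.039, exact permutation). On ranks of the shares, chosen after seeing the data, F was 6.89. When each library was left out in turn, the difference ran from -0.208 to 0.772 for peak, from -0.147 to 0.288 for resolving and from -0.0472 to 0.192 for resolved, turned by peak 2, by rest 1 or resolving 2, and by rest 1 in that order. The F for runs then ran from 1.24 to 5.23 (chosen after seeing the data), highest without peak 2. The difference in the share of monocyte-like and macrophage-like cells, resolved minus rest, ran from -55.0 to -33.3, and with at least 3 macrophage markers in place of clusters the difference was -12.5 for peak, -23.3 for resolving and -33.3 for resolved. Other alternatives for these shares kept their direction and their side of the threshold.

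For resolved against rest, edgeR called 10 genes with total counts only and DESeq2 called 13, and 0 to 65 were called when a library was left out, most without resolved 2. For the runs, 6 were called with total counts only, 49 without the filter, 2 by DESeq2, 8 with at least 10 cells per sum, 1 in monocyte-like and macrophage-like cells, and 0 to 8 when a library was left out. The cause was not tested. With 1 library left in a group, its spread was taken from the others. With at least 10 cells per sum no rest library was left, and with the run of suffixes as a block, or with monocyte-like and macrophage-like cells only, no residual degrees of freedom were left for resolved against rest, so these fits were not run.

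The replicate numbers were not taken to pair the libraries, since the deviations of same-numbered libraries correlated at r = -0.46 to 0.83. With the numbers paired, the exact permutation p for the share of immune cells was 1 for peak and 0.75 for resolving and resolved. The replicate block in edgeR called 8 genes. The depth of 5 to 32 immune cells per library limits every gene comparison.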
